A study of Mus musculus with 6 samples.

Results

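The genes described here were *Serpinh1* and 9 genes whose products fold or modify collagen in the endoplasmic reticulum (ER), followed through RNA sequencing of the cardiac side population (SP) of mice. They comprised the chaperones and isomerases *Serpinh1*, *Ppib* and *Fkbp10*, the prolyl 4-hydroxylase genes *P4ha1*, *P4ha2*, *P4ha3* and *P4hb*, and the lysyl hydroxylase genes *Plod1*, *Plod2* and *Plod3*. *Serpinh1* was chosen by its measured difference between the genotypes in these same libraries, so its values are given as a description without a test, and the other 9 genes were chosen for their function. All 10 genes were found among the 50600 genes of the table, and all 10 were among the 13475 protein-coding genes with over 1 CPM (read counts scaled to library size with TMM factors) in 2 or more libraries, on which the tests were run.

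The SP is the fraction of heart cells that exclude the DNA dye Hoechst by active efflux, and it was sorted from heart cell suspensions that had been depleted of cardiomyocytes and erythrocytes. Wild-type (wt) mice were C57BL/6NRj, and the others were C57BL/6Flt3Ltml/mx (flt3L-/-), with both groups 8 to 12 wk of age. The study's methods name no C57BL/6 substrain for the flt3L-/- mice. Each of the 6 libraries, 3 per genotype, pooled the sorted cells of 4 mice, and a wt and an flt3L-/- sort were made on each of 3 dates, called pairs 1, 2 and 3 below. The sort gates a mixture of cells, and the number of cells of each type in a library was not measured.

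Collagen chains are made on the ER, where prolyl 4-hydroxylases hydroxylate prolines so that the triple helix is stable at body temperature, and lysyl hydroxylases modify lysines that later carry crosslinks and sugars. Cyclophilin B and FKBP65, encoded by *Ppib* and *Fkbp10*, isomerize prolyl bonds, and HSP47, encoded by *Serpinh1*, binds the folded procollagen helix and escorts it toward the Golgi. In the heart fibroblasts make most of the fibrillar collagen, while endothelial cells and pericytes make much of the basement membrane collagen.

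Total counts per library lay between 24370913 and 31145519, and 3 counts, taken as the detection limit for counting error only, were 0.109 to 0.127 CPM. *Flt3l*, the gene targeted in these mice, had 8.67, 10.8 and 12.1 CPM in the wt libraries of pairs 1, 2 and 3 and 13.6, 12.4 and 14.4 CPM in the flt3L-/- libraries, so its reads were not lower there. Of the exon bases of *Flt3l*, 22.1% also belong to Gm45713, and reads there cannot be assigned without strand. The second group is called the libraries labelled flt3L-/- in what follows. *Flt3l* and *Serpinh1* both lie on chromosome 7, 54.2 Mb apart. Transcripts of the dye pumps *Abcg2* and *Abcb1a* were present in every library, at 147 to 274 CPM and 121 to 156 CPM. Markers of several cell types were detected, and their summed levels moved between libraries. The 8 fibroblast markers summed to 13835, 7104 and 5884 CPM in wt and to 5519, 9049.5 and 3149 CPM in the libraries labelled flt3L-/-, lower there in pairs 1 and 3 and higher in pair 2. The 8 endothelial markers summed to 7489, 9825 and 9835 CPM in wt and to 9869, 7973 and 12013 CPM in the libraries labelled flt3L-/-, so this sum ran in the opposite order in every pair. Taken singly, 8 of these markers were higher there in pair 1, 1 in pair 2 and 6 in pair 3. The 6 macrophage and monocyte markers summed to 34.0 to 1657 CPM in wt against 86.3 to 933 CPM in the libraries labelled flt3L-/-.

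In wt SP cells the 10 genes covered a wide range of levels. Compared per length, as CPM per kb of merged exons, *Serpinh1* was highest at 418 ± 42.5 (SD, n = 3), above 99.5% of all genes tested, and *P4hb*, which encodes protein disulfide isomerase, the shared beta subunit of the prolyl 4-hydroxylases, followed at 247 ± 8.94. *Plod1* stood at 62.7 ± 8.32, *P4ha1* at 42.9 ± 11.7, *Ppib* at 36.3 ± 0.693 and *Plod3* at 29.4 ± 5.35 CPM per kb. *Fkbp10* reached 24.6 ± 8.32, *P4ha2* 15.8 ± 5.42, *Plod2* 10.5 ± 2.06 and *P4ha3* 1.05 ± 0.734 CPM per kb. The values of *Plod1* and *P4ha1*, *P4ha1* and *Ppib*, *Plod3* and *Fkbp10*, and *Fkbp10* and *P4ha2* overlapped across the 3 wt libraries, whereas the other 5 neighbouring pairs did not overlap. Within libraries, *Plod1* was above *P4ha1* in 3 of 3, and the other 3 overlapping neighbours held their order in 2 of 3 libraries and did not differ beyond their spread. In the libraries labelled flt3L-/- the order was the same except that *P4ha2* stood above *Fkbp10*. When the longest transcript was used as the length, 6 of the 10 genes kept their place in the wt order.

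**Figure D1:**
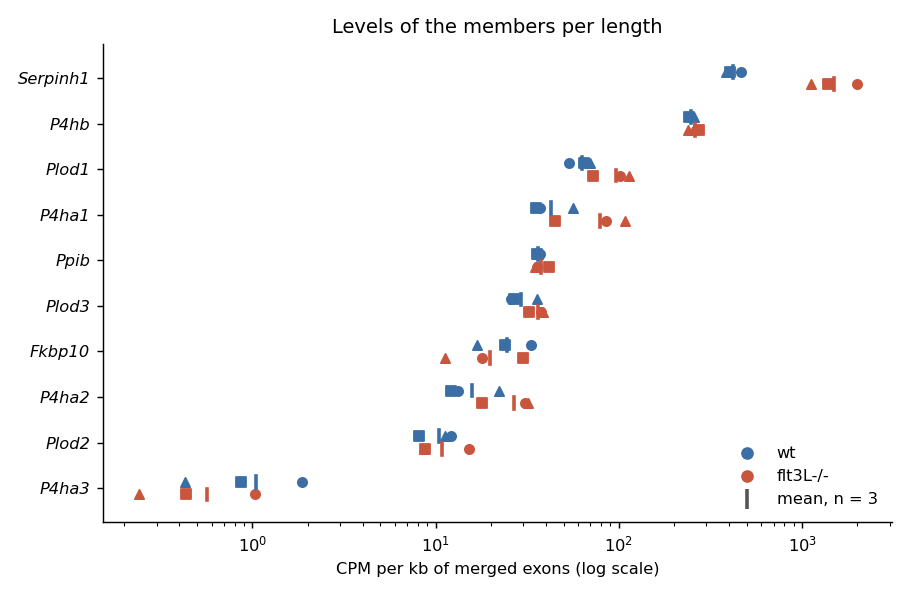
Level of each gene in CPM per kb of merged exons (log axis), with 1 point per library (shapes mark the 3 sorting dates), blue for wt and red for the libraries labelled flt3L-/-, and a bar at the mean of 3. *Serpinh1* is highest in both groups, with wt values of 386 to 466 and values of 1120 to 1982 in the libraries labelled flt3L-/-, and *P4ha3* is lowest, under 2 in every library.

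*Serpinh1* (ENSMUSG00000070436, GRCm38 chr7:99345376-99353239, minus strand) had 1139, 984 and 942 CPM in the wt libraries of pairs 1, 2 and 3. In the libraries labelled flt3L-/- it had 4842, 3394 and 2737 CPM. The wt values lay within a factor of 1.21 of each other, every library labelled flt3L-/- stood above every wt library, and in both groups pair 1 was highest and pair 3 lowest. The means were 1022 ± 104 CPM and 3658 ± 1077 CPM (SD, n = 3), a ratio of 3.58, and the log2 fold change was 1.80 in the edgeR model that includes sorting date. No exon bases of *Serpinh1* are shared with another annotated gene. In bulk libraries, more RNA per cell and more cells of an expressing type cannot be told apart.

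The other 2 folding factors did not follow *Serpinh1*. *Ppib* (chromosome 9) had 122, 118 and 120 CPM in wt against 118, 137 and 116 CPM in the libraries labelled flt3L-/-. These 6 values lay close together and overlapped, and the log2 fold change was 0.04 ± 0.13 SE (standard error, with adjusted p = 0.986 in edgeR's quasi-likelihood test). *Snx22* shares 25.0% of the exon bases of *Ppib*, and reads there cannot be assigned in unstranded libraries. *Fkbp10* (chromosome 11) had 97.8, 69.8 and 49.2 CPM in wt against 52.9, 87.5 and 33.0 CPM in the libraries labelled flt3L-/-, lower in pairs 1 and 3 and higher in pair 2. Its log2 fold change was −0.38 ± 0.27 SE (adjusted p = 0.973 in edgeR), and the groups overlapped. Leaving out a pair moved the value between −0.75 without pair 2 and −0.12 without pair 1, and *Nt5c3b* shares 6.58% of its exon bases.

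**Figure D2:**
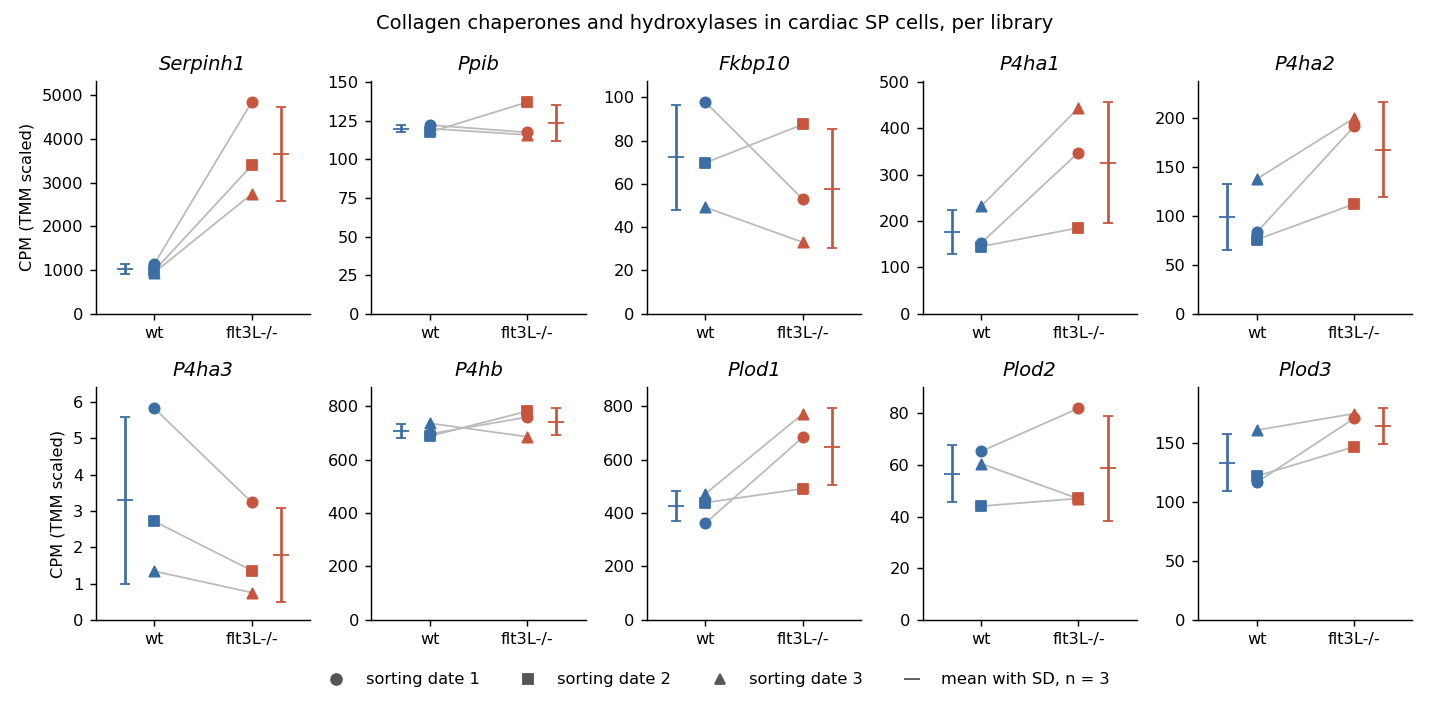
CPM of each of the 10 genes in each library (linear axes from 0), with wt and flt3L-/- libraries of 1 sorting date joined by a line, and the mean and SD of 3 libraries beside each group. All 3 lines of *Serpinh1* climb from 942 to 1139 CPM to between 2737 and 4842 CPM, the lines of *P4ha1*, *P4ha2*, *Plod1* and *Plod3* slope up, those of *P4ha3* slope down, and those of *Ppib*, *P4hb*, *Plod2* and *Fkbp10* cross.

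Prolyl 4-hydroxylase is a tetramer of 2 catalytic alpha subunits, of 1 of 3 kinds, and 2 beta subunits. *P4ha1* (chr10:59323296-59373304, plus strand), the alpha subunit gene with the highest level per length, had 152, 145 and 232 CPM in wt against 348, 185 and 444 CPM in the libraries labelled flt3L-/-. It was higher in the library labelled flt3L-/- of every pair, although the value of 185 CPM in pair 2 lay below the wt value of pair 3, so the groups overlapped. Its log2 fold change was 0.83 ± 0.20 SE (unadjusted p = 0.0104 and adjusted p = 0.973 in edgeR). *P4ha2* (chr11:54100095-54131665, plus strand) had 83.1, 75.6 and 138 CPM in wt against 191, 112 and 200 CPM in the libraries labelled flt3L-/-. The order of its libraries within each group was that of *P4ha1*, again with the library labelled flt3L-/- of pair 2 below the wt library of pair 3, and its log2 fold change was 0.77 ± 0.18 SE (unadjusted p = 0.00960 and adjusted p = 0.973 in edgeR).

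*P4ha3* (chr7:100285520-100319699, plus strand), which lies 932281 bases from *Serpinh1*, ran the other way. It had 5.83, 2.72 and 1.34 CPM in wt against 3.24, 1.36 and 0.752 CPM in the libraries labelled flt3L-/-, from 19 to 150 reads per library. It was lower in 3 of 3 pairs by similar amounts, 0.83, 0.96 and 0.77 on the log2 scale, while the level was highest in pair 1 and lowest in pair 3 in both groups, and the groups overlapped. The log2 fold change was −0.89 ± 0.32 SE (unadjusted p = 0.0388 and adjusted p = 0.973 in edgeR). *P4hb* (chromosome 11) had 696, 688 and 736 CPM in wt against 759, 781 and 685 CPM in the libraries labelled flt3L-/-, with overlapping groups and a log2 fold change of 0.07 ± 0.15 SE (adjusted p = 0.977 in edgeR). The beta subunit is also a general disulfide isomerase of the ER.

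Among the alpha subunits, *P4ha1* made up 70.9% to 73.1% of the summed level per length in wt and 71.0% to 77.0% in the libraries labelled flt3L-/-. The mean difference was 1.75 percentage points (SD 3.79 over 3 pairs), with opposite signs in pairs 2 and 3 (p = 0.75, exact two-sided paired permutation test, in which 3 pairs allow no p below 0.25). It turned to −0.13 points without pair 3. *P4ha3* contributed 3.56%, 1.80% and 0.543% in wt and 0.889%, 0.683% and 0.171% in the libraries labelled flt3L-/-, the smallest share in every library.

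Lysyl hydroxylases differ in the lysines they use. LH1, encoded by *Plod1*, acts on helical lysines, LH2, encoded by *Plod2*, on telopeptide lysines, and LH3, encoded by *Plod3*, also transfers sugars to hydroxylysine. *Plod1* (chr4:147909753-147936767, minus strand) had 362, 439 and 472 CPM in wt against 684, 491 and 771 CPM in the libraries labelled flt3L-/-. Every library labelled flt3L-/- stood above every wt library, narrowly so in pair 2, and the log2 fold change was 0.60 ± 0.20 SE (unadjusted p = 0.0306 and adjusted p = 0.973 in edgeR). *Plod3* (chromosome 5) had 116, 122 and 161 CPM in wt against 171, 146 and 175 CPM in the libraries labelled flt3L-/-, higher in each pair with overlapping groups, and a log2 fold change of 0.31 ± 0.14 SE (unadjusted p = 0.0827 and adjusted p = 0.973 in edgeR). Genes that include *Znhit1* share 11.9% of the exon bases of *Plod3*.

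*Plod2* (chromosome 9) had 65.2, 44.0 and 60.5 CPM in wt against 81.9, 47.0 and 46.9 CPM in the libraries labelled flt3L-/-, higher in pairs 1 and 2 and lower in pair 3. Its log2 fold change was 0.02 ± 0.18 SE (adjusted p = 0.994 in edgeR) and took either sign when a pair was left out, from −0.14 to 0.21, and Gm38391 shares 6.42% of its exon bases. The share of *Plod2* in the summed level per length of the 3 lysyl hydroxylases was 13.2%, 8.17% and 9.63% in wt and 9.87%, 7.67% and 5.39% in the libraries labelled flt3L-/-. It was lower in each pair, by 2.70 percentage points on average (SD 1.95 over 3 pairs, p = 0.25, exact two-sided paired permutation test, the smallest p that 3 pairs allow). The share of *Plod1* was 58.6%, 64.9% and 59.9% in wt against 65.6%, 63.8% and 70.7% in the libraries labelled flt3L-/-.

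Counted over the 10 genes, 5 were higher in 3 of 3 pairs, *Serpinh1*, *P4ha1*, *P4ha2*, *Plod1* and *Plod3*, where 14.2% of all genes tested were. The count of genes lower in 3 of 3 pairs was 1, *P4ha3*, where 11.5% of all genes tested were. The groups did not overlap for *Serpinh1* and *Plod1*, both higher, against 6.45% of all genes tested in either direction and 3.53% in that of the higher genes. Of the 9 genes besides *Serpinh1*, 0 had an adjusted p under 0.05 in edgeR, where the background was 0% of all genes, and 0 did in DESeq2, where it was 0.156%, with the lowest adjusted p of the 9 in DESeq2 at 0.148 for *P4ha1*. An unadjusted p under 0.05 in edgeR was found for 4 of these 9 genes, *P4ha1*, *P4ha2* and *Plod1* being higher and *P4ha3* lower, against 3.59% of all genes tested (1.11% higher and 2.49% lower). That count was 2 without pair 1 (*P4ha1* and *P4ha2*), 1 without pair 3 (*P4ha2*), and 4 without pair 2, with *Fkbp10* in place of *P4ha3*. *P4ha3* was not among them without any 1 of the pairs, nor without sorting date in the model. Over all genes, an unadjusted p under 0.05 in edgeR was found for 484 with all pairs and for 980 without pair 2. It was found for 341 without pair 1 and for fewer still without pair 3. The count of 4 without pair 2 therefore stands against a larger background. The median log2 fold change over these 9 genes was 0.07. Over all genes tested, the median log2 difference was 0.04, 0.00 and 0.01 in pairs 1, 2 and 3. Since genotype chose *Serpinh1* and the set was drawn up with that result known, these counts describe the set.

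**Figure D3:**
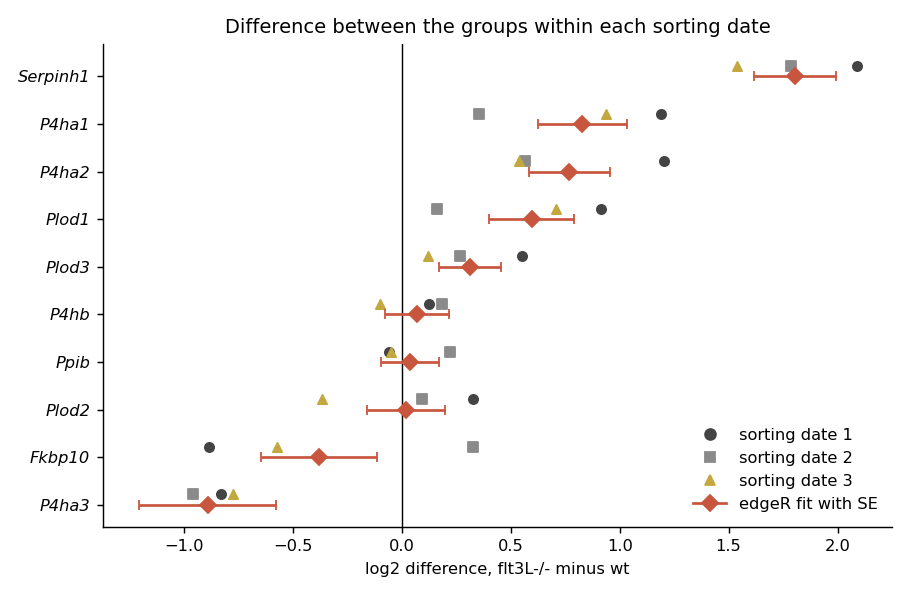
Log2 difference between the library labelled flt3L-/- and the wt library within each sorting date (grey, black and yellow symbols) and the edgeR log2 fold change with its standard error (red diamonds). *Serpinh1* lies between 1.54 and 2.09 in the 3 pairs, *P4ha1*, *P4ha2*, *Plod1* and *Plod3* lie above 0 in each pair, and *P4ha3* lies between −0.96 and −0.77.

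The sorting date is a comparison on which no gene was chosen. In the F test of the 2 date terms of the edgeR model, 0 of the 10 genes had an adjusted p under 0.05 (background 0%), with a lowest adjusted p of 0.598, and DESeq2 called 0 of the 10 where it called 2.89% of all genes. Unadjusted p-values under 0.05 in edgeR were found for *P4ha3* (0.00854), *P4ha1* (0.0344) and *P4ha2* (0.0365), 3 of the 10 genes against 8.28% of all genes tested. From date 1 to date 3 the fitted log2 level of *P4ha3* differed by −2.11, that of *Fkbp10* by −0.86, that of *P4ha1* by 0.47 and that of *P4ha2* by 0.38. From date 1 to date 2, *P4ha1* differed by −0.48 and *P4ha2* by −0.47, so that both alpha subunit genes were lowest in pair 2 in the fit. *Ppib* and *P4hb* differed by less than 0.1 on the log2 scale between any of these dates and date 1.

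Several of the genes shared 1 pattern over the 6 libraries. In log2 CPM, Pearson's r was 0.97 between *P4ha1* and *P4ha2*, 0.95 between *P4ha1* and *Plod1*, 0.91 between *P4ha1* and *Plod3*, and 0.97 between *P4ha2* and *Plod3* (6 libraries each, given as a description). *Fkbp10* ran against them, with r of −0.87 to *P4ha1*, −0.83 to *Plod1*, −0.81 to *P4ha2* and −0.81 to *Plod3*. *Serpinh1* was less close to them, with r of 0.63 to *P4ha1*, 0.67 to *P4ha2*, 0.72 to *Plod1* and 0.62 to *Plod3*, and r of 0.25 to *Plod2*. The points of these correlations share library, depth and the cell mixture of each sort.

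The shared pattern moved with the cell markers. *Fkbp10* followed the summed fibroblast markers (r = 0.97 over 6 libraries). It went from 97.8 CPM in the wt library of pair 1, where the sum was highest, to 33.0 CPM in the library labelled flt3L-/- of pair 3, where it was lowest. Most of this sum was *Dcn* and *Lum*, at 10551 and 2116 of 13835 CPM in the wt library of pair 1. The correlations with it therefore weigh the other markers little, and in pair 2 only 6 of the 8 markers were higher. *P4ha1* (r = −0.85), *P4ha2* (−0.79), *Plod1* (−0.89) and *Plod3* (−0.82) ran against the fibroblast markers. *P4ha1* (0.75), *Plod1* (0.78), *Plod3* (0.67) and *P4ha2* (0.65) ran with the summed endothelial markers, and *Fkbp10* ran against that sum (−0.95). Most of the endothelial sum was *Kdr* and *Fabp4*, at 3385 and 1660 of 7489 CPM in the wt library of pair 1. In pair 3 *Fabp4* was higher and *Kdr* lower in the library labelled flt3L-/-. *P4ha3* ran with the fibroblast markers (0.74) and against the endothelial ones (−0.63). With the summed markers of pericytes and smooth muscle cells, r was 0.88 for *P4ha3* and 0.80 for *Fkbp10*. In pair 2, where the fibroblast sum was higher in the library labelled flt3L-/-, the differences of *P4ha1* (0.35) and *Plod1* (0.16) were the smallest of the 3 pairs, whereas those of *P4ha2* (0.57) and *Plod3* (0.27) were larger than in pair 3 (0.54 and 0.12). For *Serpinh1* the correlation was −0.34 with the fibroblast sum and 0.16 with the endothelial sum, and its difference in pair 2, at 1.79, lay between those of the other pairs. Of the 8 fibroblast markers 2 were lower in 3 of 3 pairs and of the 8 endothelial markers 1 was higher, with median log2 fold changes of −0.63 and 0.23. The part of the cell mixture in the values of the 10 genes was not tested.

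**Figure D4:**
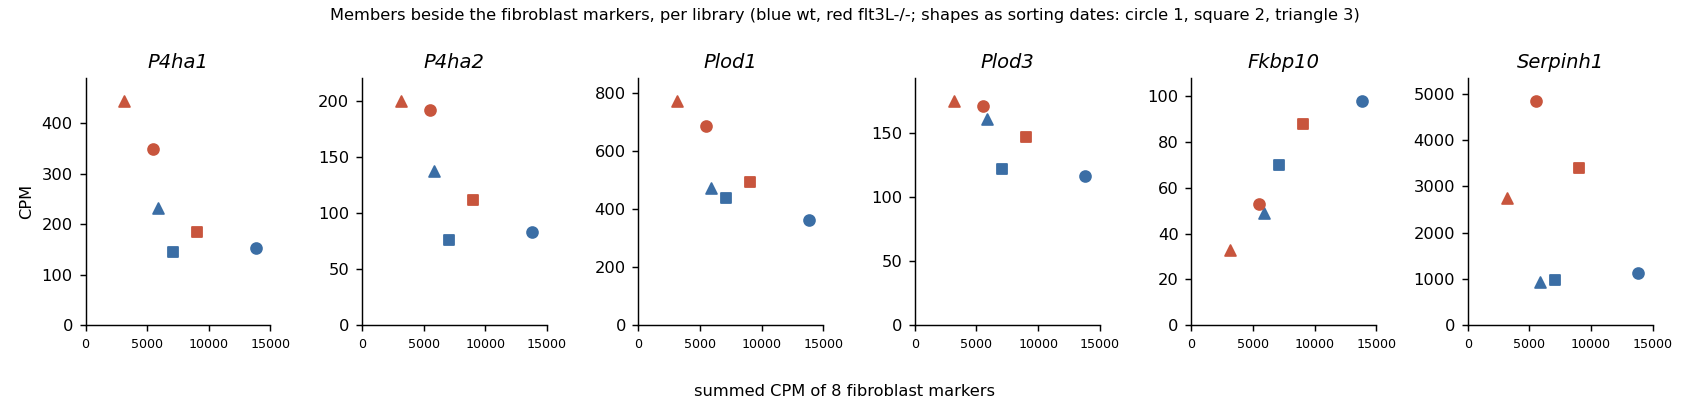
CPM of 6 of the genes in each library against the summed CPM of 8 fibroblast markers (linear axes, 1 point per library, blue for wt and red for flt3L-/-, shapes for sorting dates). *Fkbp10* climbs with the marker sum, and *P4ha1*, *P4ha2*, *Plod1* and *Plod3* are highest at the lowest sums. *Serpinh1* has wt values of 942 to 1139 CPM at sums of 5884 to 13835 CPM. In the libraries labelled flt3L-/- it has 2737 CPM or more at sums of 3149 to 9049.5 CPM. As *Serpinh1* was chosen by genotype, its separation comes with the choice.

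The 250 bases before the RefSeq start site (build GRCm38.p6) are shown for *Serpinh1*, because it differed most, and for the 3 alpha subunit genes, because *P4ha1* and *P4ha2* moved together and *P4ha3* did not. Each is printed 5′ to 3′ on the strand of its gene. Capitals mark the letters ACGTG or GCGTG, the core bound by hypoxia-inducible factors, on either strand, and the 8-letter heat shock element motifs GAANNTTC and TTCNNGAA, which read the same on both strands. The windows are chr7:99353240-99353489 (minus strand) for *Serpinh1*, chr10:59323046-59323295 (plus strand) for *P4ha1*, chr11:54100674-54100923 (plus strand) for *P4ha2*, which lies inside the annotated span of its gene, and chr7:100285270-100285519 (plus strand) for *P4ha3*.
Serpinh1: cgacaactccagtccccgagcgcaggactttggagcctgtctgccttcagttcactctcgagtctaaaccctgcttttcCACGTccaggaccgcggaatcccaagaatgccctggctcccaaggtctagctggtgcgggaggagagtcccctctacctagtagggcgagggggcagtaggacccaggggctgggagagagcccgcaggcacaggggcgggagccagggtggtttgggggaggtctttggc
P4ha1: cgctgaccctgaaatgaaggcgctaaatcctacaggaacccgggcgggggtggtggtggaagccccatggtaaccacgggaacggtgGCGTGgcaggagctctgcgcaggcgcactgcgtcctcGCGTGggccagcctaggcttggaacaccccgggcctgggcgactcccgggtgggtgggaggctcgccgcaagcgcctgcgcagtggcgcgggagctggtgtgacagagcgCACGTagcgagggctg
P4ha2: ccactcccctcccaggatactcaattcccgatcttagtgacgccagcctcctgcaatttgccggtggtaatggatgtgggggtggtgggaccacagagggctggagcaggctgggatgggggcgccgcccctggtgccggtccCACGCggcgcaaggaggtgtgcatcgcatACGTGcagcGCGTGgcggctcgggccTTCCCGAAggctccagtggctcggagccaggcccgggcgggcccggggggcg
P4ha3: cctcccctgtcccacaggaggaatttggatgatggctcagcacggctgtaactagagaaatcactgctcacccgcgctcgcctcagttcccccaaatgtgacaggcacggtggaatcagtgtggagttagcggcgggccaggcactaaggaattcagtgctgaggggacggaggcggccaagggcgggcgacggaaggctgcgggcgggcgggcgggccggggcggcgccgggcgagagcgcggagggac

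Promoter windows were matched for 8 of the 10 genes, all but *Fkbp10* and *Plod2*, and that of *Plod3* overlaps annotated exons. The hypoxia core was found in 7 of these 8 windows, all but that of *P4ha3*, and in 38.6% of 32851 windows of the same length. G and C made up 55.6% to 70.0% of the 8 windows. Both forms of the core hold CG, and the 38.6% was not matched for base content, so the 2 shares do not measure enrichment. *Serpinh1* held it at position −171 from the start, *P4ha1* at −163, −126 and −16, and *P4ha2* at −107, −78 and −69. The motif TTCNNGAA stood in the window of *P4ha2* at −52, as TTCCCGAA, and in none of the other 7, against 7.17% of all windows, and GAANNTTC stood in none of the 8, against 6.69% of all windows. These matches describe letters and do not show that a factor was bound.

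The genes of the collagens that these proteins fold had median differences below 0. For this and the gene lists that follow, the background was 14.2% of all genes tested higher and 11.5% lower in 3 of 3 pairs. Of 11 fibrillar chain genes 8 were tested, of which 0 were higher and 4 were lower in 3 of 3 pairs, with a median log2 fold change of −0.89, and 0 had an adjusted p under 0.05. Their median log2 difference was −0.86, −0.05 and −1.71 in pairs 1, 2 and 3, with 4 of 8 higher in pair 2, and the median of the fibroblast markers moved with it, at −0.74, 0.27 and −1.32. *Col3a1*, the chain of type III collagen, had 2191, 2552 and 1008 CPM in wt against 1302, 1667 and 308 CPM in the libraries labelled flt3L-/-, and *Col1a2*, a chain of type I collagen, had 1212, 1118 and 652 CPM and 641, 846 and 199 CPM. Their log2 fold changes were −1.02 ± 0.27 SE and −1.01 ± 0.29 SE, each with an adjusted p of 0.973 in edgeR. Of the 6 basement membrane chain genes, 3 were lower and 0 higher in 3 of 3 pairs, while *Col4a1*, the most abundant, was mixed, at 3022, 3970 and 3418 CPM in wt against 4999, 2554 and 2014 CPM in the libraries labelled flt3L-/-.

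Set against the fibrillar chains, *Serpinh1* differed more than it did alone. The ratio of *Serpinh1* CPM to the summed CPM of the fibrillar chains was 0.224, 0.201 and 0.401 in the wt libraries of pairs 1, 2 and 3. It was 1.70, 0.953 and 3.99 in the libraries labelled flt3L-/-. The groups did not overlap, but *Serpinh1*, chosen by genotype, already separated them alone, and the summed chains were lower in each pair. The separation of the ratio is therefore no further result. The log2 ratio differed by 2.92, 2.25 and 3.31 within the pairs, a mean of 2.83 (SD 0.54, n = 3 pairs), described without a test. Relative to *Col4a1* plus *Col4a2*, the ratio of *Serpinh1* was 0.246, 0.163 and 0.182 in wt and 0.641, 0.866 and 0.850 in the libraries labelled flt3L-/-. These log2 ratios differed by 1.38, 2.41 and 2.22 within the pairs, below the difference of *Serpinh1* alone in pair 1 and above it in pairs 2 and 3. The ratio of *P4hb* to the fibrillar chains was 0.137, 0.140 and 0.313 in wt and 0.266, 0.219 and 0.998 in the libraries labelled flt3L-/-, and the ratio of *Fkbp10*, 0.0193, 0.0143 and 0.0209 against 0.0186, 0.0246 and 0.0481, was lower by 0.05 on the log2 scale in pair 1 and higher in the other pairs.

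None of the remaining enzymes and chaperones of collagen was higher in 3 of 3 pairs. Of 12 other collagen enzymes and chaperones of the ER, which include the prolyl 3-hydroxylases, 0 were higher and 5 were lower in 3 of 3 pairs, with a median log2 fold change of −0.20 and 0 with an adjusted p under 0.05. *Fkbp9*, a relative of *Fkbp10* and the most abundant of them, had 337, 329 and 283 CPM in wt against 300, 317 and 277 CPM in the libraries labelled flt3L-/- (log2 fold change −0.08 ± 0.13 SE). Among the 7 genes of ER retention and procollagen export, which carry HSP47 back and procollagen onward, 0 were higher and 2 were lower, with a median of −0.15. Of 13 genes of procollagen processing and crosslinking, 0 were higher and 5 were lower, with a median of −0.56. The median was −0.49 and −1.07 in pairs 1 and 3 and 0.12 in pair 2, where 8 of the 13 were higher, the pair in which the fibroblast markers were higher too. *Adamts2*, which removes the N-propeptide, was lower in 3 of 3 pairs, with a log2 fold change of −1.18 ± 0.16 SE (unadjusted p = 0.000981 and adjusted p = 0.973 in edgeR). The study's own edgeR test listed *Adamts2* among its significantly lower genes, a call that was not reached here.

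The lists of general chaperones had median differences above 0. Of 20 genes of ER chaperones and the unfolded protein response, 10 were higher and 1 was lower in 3 of 3 pairs, with a median log2 fold change of 0.17. *Hspa5* (BiP), the most abundant, differed by 0.16 ± 0.18 SE, and *Sdf2l1* had 21.7, 19.9 and 24.3 CPM in wt against 31.5, 38.1 and 31.7 CPM in the libraries labelled flt3L-/- (log2 fold change 0.62, adjusted p = 0.973 in edgeR). *Ern1*, a sensor of unfolded proteins, was lower in 3 of 3 pairs, with 26.4, 20.3 and 19.2 CPM in wt against 20.6, 13.5 and 11.1 CPM in the libraries labelled flt3L-/- (log2 fold change −0.58 ± 0.17 SE, adjusted p = 0.973 in edgeR). The list of heat shock factor targets, the class of genes to which *Serpinh1* belongs, held 17 genes and also included *Hsf1*, which encodes the factor. Of these 17, 9 were higher and 0 lower in 3 of 3 pairs, with a median of 0.38. The highest log2 fold change of them was 0.72, that of *Hspb1*, against 1.80 for *Serpinh1*. *Hspa1b*, the most abundant of them, had 5840.0, 6858 and 6603 CPM in wt against 7396, 6793 and 9618 CPM in the libraries labelled flt3L-/-, slightly lower there in pair 2.

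Of 16 hypoxia target genes tested, 9 were higher and 1 was lower in 3 of 3 pairs, with a median log2 fold change of 0.22, and *P4ha1*, *P4ha2* and *Plod2* are known targets of the same factors. *Slc2a1*, the glucose transporter GLUT1, had 33.3, 30.1 and 27.2 CPM in wt against 43.4, 44.8 and 51.2 CPM in the libraries labelled flt3L-/- (log2 fold change 0.62 ± 0.16 SE, adjusted p = 0.973 in edgeR), while *Plod2* stood at 0.02. In each of these 3 lists of general chaperones, heat shock and hypoxia targets, 0 genes had an adjusted p under 0.05.

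**Figure D5:**
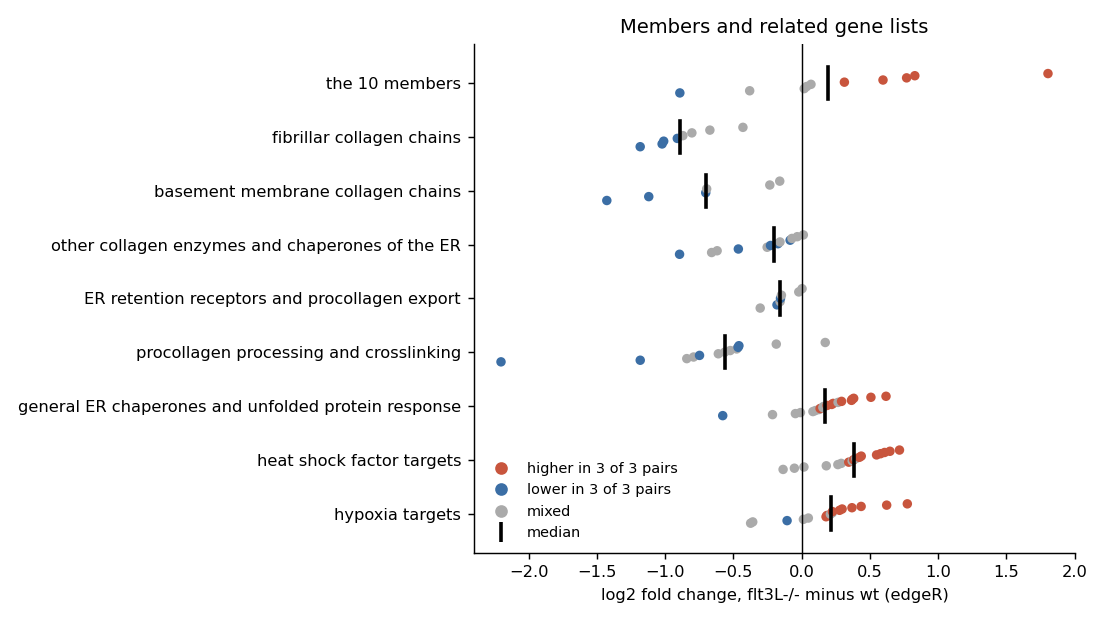
Log2 fold change of each tested gene of the 8 gene lists and of the 10 genes described (1 point per gene, red for higher and blue for lower in 3 of 3 pairs, grey for mixed, black bar at the median). The medians of the collagen, collagen enzyme and processing lists lie below 0 (−0.89 to −0.15), those of the ER chaperone, heat shock and hypoxia lists above it (0.17 to 0.38), and *Serpinh1* at 1.80 is the point farthest to the right.

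Over the 6 libraries the 5 genes whose log2 CPM was most like that of *Serpinh1* were *Map6* (r = 0.994), *Fmnl2* (0.980), *Tal1* (0.978), *Exd2* (0.965) and *Capn1* (0.963), out of 28 genes with r over 0.9. None of the other 9 collagen genes was among them. *Map6*, a microtubule protein, ends 8239 bases from *Serpinh1* on the same chromosome. It had 36.5, 33.8 and 36.7 CPM in wt against 73.7, 61.7 and 57.9 CPM in the libraries labelled flt3L-/-. The groups did not overlap for any of these 5 genes. As the 5 were picked by likeness to *Serpinh1* over the same libraries, that separation comes with the choice. Of 23 other genes tested within 1 Mb of *Serpinh1*, 8 were higher and 3 were lower in 3 of 3 pairs, where 14.2% and 11.5% of all genes tested were. Their median log2 fold change was 0.09, and the extremes were *Map6* at 0.85 and *P4ha3* at −0.89.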

How the data were processed

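RNA of sorted cardiac SP cells was made into unstranded SMART-Seq v4 libraries. According to the labels and the methods of the study, single reads of 81 bases were mapped to mm10 with STAR 2.5.2a, quality was checked with FastQC 0.11.3, and reads starting in an exon (Ensembl release 88) were counted per gene with QuasR. The authors deposited these counts without normalization. Reads with several equally good positions were placed at random among them, and reads on overlapping genes cannot be told apart without strand.

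Gene positions, exons and biotypes came from GENCODE (GRCm38), which held 50376 of the 50600 genes. In edgeR 4.0.16 (R 4.3.3), protein-coding genes that exceeded 1 CPM in 2 or more libraries were scaled with TMM factors and tested with glmQLFit and glmQLFTest (legacy = TRUE), with sorting date as a covariate (common dispersion 0.0978, prior degrees of freedom 2.79, residual degrees of freedom 2). P-values were adjusted by the Benjamini-Hochberg method over 13475 genes, with 0.05 as the threshold. Genotype p-values rest on the spread, over the 3 dates, of the difference between paired pools of 4 mice, moderated toward all genes. Log2 differences within pairs used a prior count of 2. The code was tested on simulated data with known changes.

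The sorting dates in the labels and the paired sorts in the methods define the pairs. With group means removed, same-date libraries had correlations of 0.104 to 0.180 across genes, against −0.354 to 0.247 for different dates.

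The 10 genes, the motifs, the 8 pathway lists and the 10 lists of cell markers were chosen with earlier results of these data known. From each pathway list, the genes that could be named were the 2 with the highest mean CPM and the 2 with the lowest genotype p, besides the 5 genes most like *Serpinh1*. The marker lists whose levels are not described in the text, of pericytes and smooth muscle cells, lymphocytes and NK cells, cardiomyocytes, mesothelial cells, Schwann cells and erythroid cells, had median log2 fold changes of −0.44, −0.60, 0.40, 0.31, 0.31 and 0.33, that of macrophages −0.21, and that of the SP list 0.08. Alternatives were DESeq2 1.42.0, other scalings and gene filters, all biotypes, legacy = FALSE, no replicate block, transcript length, and each pair left out.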

Additional observations from a re-analysis of the deposited data

How the results depend on the processing

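Of 119 alternative values of the log2 fold changes of the 10 genes, 113 kept their direction. None of the 9 genes besides *Serpinh1* had an adjusted p under 0.05 with edgeR or DESeq2 under any of these alternatives. *Serpinh1* lay between 1.66 and 1.94. With library size only as the scaling, *Ppib* turned to −0.0019 and *Plod2* to −0.020. Leaving out 1 pair gave −0.075 to 0.085 for *Ppib*, −0.010 to 0.15 for *P4hb* and −0.14 to 0.21 for *Plod2*, and the difference in the share of *P4ha1* among the alpha subunits ranged from −0.13 to 3.66 percentage points. The cause was not tested. Without the pairing by date (no replicate block), the log2 fold change of *P4ha1* was 0.89 and that of *Plod1* 0.61, and 0 genes were called. DESeq2 called 21 genes by genotype and 389 by date, against 0 and 0 in edgeR, and leaving out 1 pair gave 0 to 112 genes by date, the highest without pair 2. The study's own edgeR test, also with date as a covariate, did call genes by genotype, *Serpinh1* and *Adamts2* among them. Why the 2 edgeR results differ was not tested. In counts added after the values were seen, the genes lower in all remaining pairs numbered 1 to 3, with 3 without pair 2, *P4ha3*, *Fkbp10* and *Ppib*, and those higher 5 to 7. Agreement over 2 pairs is easier to reach than over 3. The shares over all genes given above are for 3 pairs, and none was computed for 2, so these counts have no background. Measured with the longest transcript, 6 of 10 places in the wt order held. *P4ha3*, with 19 reads in its lowest library, has no value under the filter of more than 1 CPM in all 6 libraries.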
